A study of Mus musculus with 20 samples.

Results

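Long intergenic non-coding RNA (lincRNA) loci with many exons and few annotated isoforms were examined in the catalogue of mouse lincRNA gene models that accompanies this series. A locus was kept when it lay on chromosomes 1 to 19, had at least 1 transcript of 5 or more exons, carried fewer than 5 transcripts and spanned at most 100000 bp. The rule kept 660 of 29286 catalogued loci (2.25%). They made up 64.1% of the 1029 autosomal loci with a transcript of 5 or more exons.

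The study captured RNA with newly replicated DNA from wild-type mouse embryonic stem cells (ESC) and from NIH3T3 cells, a mouse fibroblast line. All cells were labelled for 10 min with EdU, a thymidine analogue that a click reaction can join to biotin, and total RNA bound to streptavidin was sequenced. In each cell type there were 5 groups of 2 libraries. The no_click group received DMSO in place of biotin azide, and the other groups received 10 µM biotin azide. The no_click and click_normal groups had no hydroxyurea, a drug that slows replication by lowering nucleotide supply. The click_HU, click_chase and click_protease groups had 4 mM hydroxyurea for 4 h. Their names set them apart by a chase or a protease step, which is not described here. NIH3T3 cells of every group had first spent 15 h in 2 mM thymidine, which holds cells at the start of S phase, followed by a 2.5 h release. The deposited catalogue gives exon positions and no value per library, so no abundance is reported and the groups are not compared. No depth therefore stands behind any value.

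LincRNAs are transcribed by RNA polymerase II and most are spliced and polyadenylated like messenger RNAs, without a conserved open reading frame. Their exons are joined at the ends of introns, so the lengths of exons and introns record which splice sites a gene model uses. Gene families that arise by tandem duplication keep the lengths of internal exons, and pseudogene copies of coding genes can be spliced into transcripts without coding a full protein. Locus positions below are on mouse build mm9. Sequences and their positions are from GENCODE M21 transcripts on build GRCm38, for loci whose whole chain of internal exon and intron lengths was found in exactly 1 gene on the same chromosome and strand.

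The largest set of similar neighbours is shown first, because of an exon length that sets 8 of its loci apart from a protein-coding family. These 8 have consecutive internal exons of 134, 73, 111 and 102 nt, and the coding genes have 134, 74, 111 and 102 nt. The 12 loci lie on the plus strand of chromosome 4 and 10 of them have an internal exon of 73 nt. The sequence of the 73-nt exon could be read in 8 of these 10 and took 4 forms. The form of Mup-ps2 was carried by 4 loci and that of Mup-ps3 by 2. Capitals mark the 3 positions at which the 4 forms differ. The exons are at chr4:60156596-60156668, chr4:60238679-60238751, chr4:61535566-61535638 and chr4:61700168-61700240. All 22 protein-coding Mup genes, which encode the major urinary proteins that carry pheromones in mouse urine, had an exon of 74 nt at that place. The exon of Mup6 at chr4:60004814-60004887 on the plus strand is given below the others. Its capital marks position 59, counted from 1 at the exon's 5′ end, the base left out in its best alignment to a 73-nt exon.
Mup-ps2: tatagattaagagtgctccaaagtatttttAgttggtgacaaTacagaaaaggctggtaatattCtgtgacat
Mup-ps3: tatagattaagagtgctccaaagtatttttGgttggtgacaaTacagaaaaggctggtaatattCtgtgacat
Mup-ps13: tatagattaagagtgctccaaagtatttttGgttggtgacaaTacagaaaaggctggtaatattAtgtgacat
Mup-ps15: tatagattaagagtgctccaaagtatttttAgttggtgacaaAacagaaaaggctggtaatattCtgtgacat
Mup6: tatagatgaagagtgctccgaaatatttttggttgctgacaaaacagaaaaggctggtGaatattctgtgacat

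The locus with the most exons, NONMMUG017698 (the gene 1520401A03Rik), repeats a very short exon. It has 13 exons of 33 nt, 7 of which are shown from the minus strand of chromosome 17, between chr17:23711321-23711353 (exon 23) and chr17:23720077-23720109 (exon 2). Capitals mark bases shared by at least 9 of the 13 exons at that position, which was so at 22 of the 33 positions. Exon 2 has the shared base at 6 positions, and the other 6 shown have it at 20 or 21. Exons 12 and 21 are identical.
1520401A03Rik exon 2: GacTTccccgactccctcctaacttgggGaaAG
1520401A03Rik exon 6: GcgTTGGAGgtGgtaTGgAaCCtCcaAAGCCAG
1520401A03Rik exon 10: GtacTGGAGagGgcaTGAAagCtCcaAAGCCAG
1520401A03Rik exon 12: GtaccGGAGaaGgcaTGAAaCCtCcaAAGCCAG
1520401A03Rik exon 18: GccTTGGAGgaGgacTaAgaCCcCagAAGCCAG
1520401A03Rik exon 21: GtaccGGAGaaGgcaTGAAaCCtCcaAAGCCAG
1520401A03Rik exon 23: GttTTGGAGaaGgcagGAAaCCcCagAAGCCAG

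Equal lengths did not always mean equal sequence. In NONMMUG012757 (Gm3287, minus strand of chromosome 14, chr14:44028523-44028611 to chr14:44034112-44034200) the 3 internal exons of 89 nt differ at 2 positions, shown in capitals.
Gm3287 exon 2: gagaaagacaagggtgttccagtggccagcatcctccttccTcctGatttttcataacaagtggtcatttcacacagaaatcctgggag
Gm3287 exon 5: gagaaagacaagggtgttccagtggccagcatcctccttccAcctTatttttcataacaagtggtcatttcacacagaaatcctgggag
Gm3287 exon 6: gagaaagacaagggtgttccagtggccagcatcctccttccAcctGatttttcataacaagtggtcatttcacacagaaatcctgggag

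In NONMMUG038327 (Gm36011, minus strand of chromosome 7, chr7:71094907-71094994 to chr7:71116290-71116377) the 3 internal exons of 88 nt differ at 81 positions, again in capitals.
Gm36011 exon 2: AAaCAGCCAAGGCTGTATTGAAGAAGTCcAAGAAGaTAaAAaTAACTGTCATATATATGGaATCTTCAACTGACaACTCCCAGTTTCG
Gm36011 exon 3: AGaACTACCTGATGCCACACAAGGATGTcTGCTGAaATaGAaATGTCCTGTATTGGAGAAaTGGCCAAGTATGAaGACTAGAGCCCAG
Gm36011 exon 5: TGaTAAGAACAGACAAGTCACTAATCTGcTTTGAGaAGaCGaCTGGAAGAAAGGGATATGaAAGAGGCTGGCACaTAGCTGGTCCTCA

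Similar neighbours were also found on opposite strands. The exon of 154 nt shared by 3 neighbours on chromosome 2 differs at 4 positions, in capitals. It lies at chr2:151272220-151272373 on the minus strand in Gm14144, at chr2:151308482-151308635 on the plus strand in 4930442J19Rik and at chr2:151425790-151425943 on the minus strand in Gm14152.
Gm14144: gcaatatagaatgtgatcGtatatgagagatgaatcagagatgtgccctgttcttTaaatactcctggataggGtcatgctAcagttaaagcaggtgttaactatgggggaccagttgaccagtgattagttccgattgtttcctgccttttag
4930442J19Rik: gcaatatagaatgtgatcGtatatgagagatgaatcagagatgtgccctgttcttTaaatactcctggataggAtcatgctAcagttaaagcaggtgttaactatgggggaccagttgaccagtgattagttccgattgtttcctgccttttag
Gm14152: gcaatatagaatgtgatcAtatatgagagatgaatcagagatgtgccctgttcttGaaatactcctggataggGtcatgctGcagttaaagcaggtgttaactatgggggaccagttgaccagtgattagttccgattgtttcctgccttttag

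The exon of 115 nt of a pair on chromosome 3 has the same sequence in both loci and so has no capitals. It lies at chr3:96356272-96356386 on the plus strand in Platr30 and at chr3:96377741-96377855 on the minus strand in Gm17575.
Platr30: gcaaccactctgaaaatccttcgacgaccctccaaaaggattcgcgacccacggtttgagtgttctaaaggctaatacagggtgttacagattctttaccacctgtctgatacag
Gm17575: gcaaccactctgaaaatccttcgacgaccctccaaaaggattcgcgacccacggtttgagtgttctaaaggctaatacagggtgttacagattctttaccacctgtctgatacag

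The 660 loci were mostly near the lower limit of the exon rule. Of these, 372 had 5 exons in their longest chain, 157 had 6, 64 had 7, 31 had 8 and 16 had 9, and 20 had 10 or more. Lengths were taken from 1 transcript per locus, the one with the most exons. One transcript was annotated at 306 loci, 2 at 163, 3 at 114 and 4 at 77, for 1282 transcripts in all. Of these transcripts, 60.5% had 5 or more exons. The plus strand held 314 loci and the minus strand 346. Chromosome 13 had the largest share of its catalogued loci among them (54 of 1386, 3.90%), and chromosome 11 had 29 of 1780 (1.63%). The median span was 17526 bp (quartiles 8119.75 and 36438.5, 95% interval of the median 15812 to 19726). Exons covered a median of 8.18% of the extent of the measured transcript, introns included.

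The first and internal exons were of similar length and the last exon was longer. The median first exon was 132 nt (95% interval 123 to 143, n = 660) and the median internal exon 119 nt (116 to 123, n = 2576). The median last exon was 381.5 nt (327 to 479, n = 660), which was 33.1% of the transcript at the median. These are intervals of the median over loci of 1 annotation and not the spread of the loci, whose last exons had quartiles of 173 and 1020 nt. Exons of a locus are not independent. The last exon was longer than every other exon in 375 loci (56.8%, exact binomial 95% interval 52.9 to 60.6%). An internal exon was the longest in 205 loci (31.1%) and the first exon in 77 (11.7%). The first exon was shorter than the last in 503 loci (76.2%). The order held at each exon number with enough loci to split. Loci with 5 exons had medians of 134, 112, 129, 128 and 394 nt from the first exon to the last. Loci with 6 exons had 112, 135, 113, 112, 110 and 415 nt. In the 20 loci with 10 or more exons the last exon was 235.5 nt at the median and took 13.0% of the transcript.

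**Figure D1:**
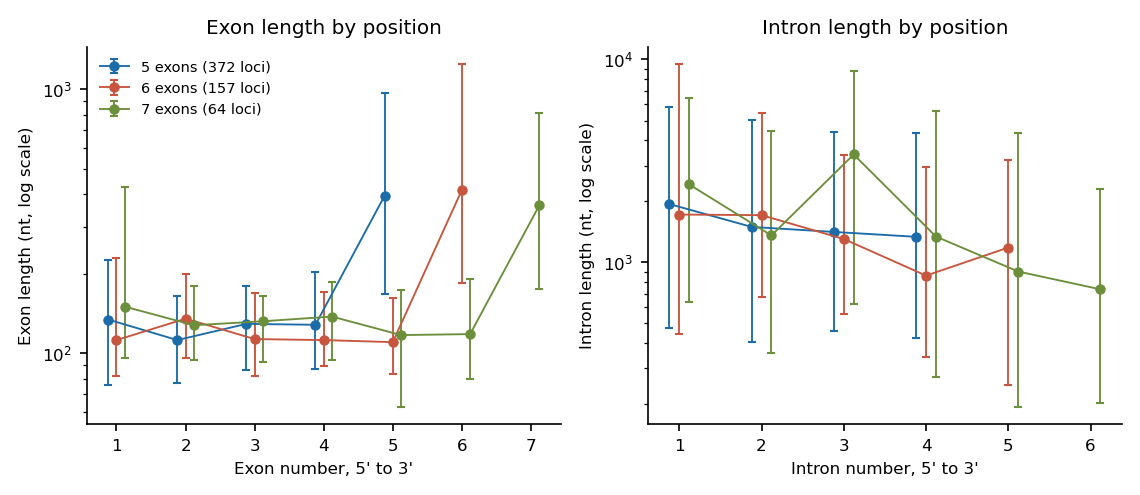
Exon length (left) and intron length (right) by position from 5′ to 3′, in nt on log axes, for the 372 loci with 5 exons, the 157 with 6 and the 64 with 7. Points are medians and bars run from the lower to the upper quartile: the last exon stands at 394, 415 and 362.5 nt while the exons before it stay between 110 and 150 nt.

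The extremes were single loci. NONMMUG004962 (chromosome 10, 125531310 to 125575338, plus strand) had the longest transcript, of 10881 nt, of which 9412 nt was its last exon. NONMMUG037877 (Gm2381, chromosome 7) followed with 9867 nt and a last exon of 5804 nt. NONMMUG004285 (chromosome 10) had 9832 nt, with an internal exon of 2921 nt. The longest internal exon, of 6626 nt, was in NONMMUG033558 on chromosome 5, and the next was 3113 nt in NONMMUG012403 on chromosome 14. The longest first exons were 3197 nt in NONMMUG005751, 2372 nt in NONMMUG004208 and 2165 nt in NONMMUG027417, each with 5 exons. NONMMUG014639 had the remaining long last exon, of 5723 nt. After the 40-exon locus came NONMMUG040868 (Gm35256) with 15 exons and NONMMUG012032 (A430090L17Rik) with 14.

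Most internal exons had lengths usual for spliced vertebrate RNA. Of 2576, 1835 (71.2%) were 50 to 200 nt long, 68 (2.64%) were under 30 nt and 133 (5.16%) were over 500 nt. The lengths divided almost evenly by remainder after division by 3, the property that keeps a reading frame when an exon is skipped. A remainder of 0 was found in 897 (34.8%, 33 to 36.7%), of 1 in 874 (33.9%) and of 2 in 805 (31.3%). In internal exons of protein-coding genes of GENCODE with 5 or more exons, 40.6% of 159116 were divisible by 3, and in those of GENCODE lincRNAs 33.4% of 3160 were. The share here was close to that of the lincRNAs and below that of the coding genes. The lincRNAs include genes matched by loci here, so those shares are not independent.

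Exons of the loci left out by each limit were measured the same way. The 242 loci with 5 or more transcripts had a median first exon of 151 nt (133 to 181), internal exon of 124 nt (120 to 128) and last exon of 445.5 nt (372 to 544). The last exon was the longest in 57.0% of them. The 87 loci that spanned more than 100 kb had medians of 133, 112 and 456 nt, and 50.4% of their introns were over 10000 nt, against 13.5% here. The 3582 loci with 3 or 4 exons, otherwise chosen alike, had 151 nt (146 to 156), 131 nt (128 to 133) and 377 nt (358 to 398). The 95% intervals of the median last exon overlapped between the 660 loci and the isoform-rich loci and between them and the loci with 3 or 4 exons. Those of the first and internal exon did not overlap with the loci of 3 or 4 exons. The differences were not tested, since loci of 1 annotation are not replicates. GENCODE lincRNAs with 5 or more exons had 127 nt (120 to 137), 118 nt (115 to 121) and 364 nt (331 to 415), n = 769. All 3 intervals overlapped those of the 660 loci. However, 299 of the 660 loci matched a GENCODE lincRNA gene, so the sets share gene models. Their overlap is therefore not independent evidence of likeness. Protein-coding genes with 5 or more exons had 198, 124 and 1019 nt, n = 14104, so that the last exon was the part that differed most from the loci here.

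**Figure D2:**
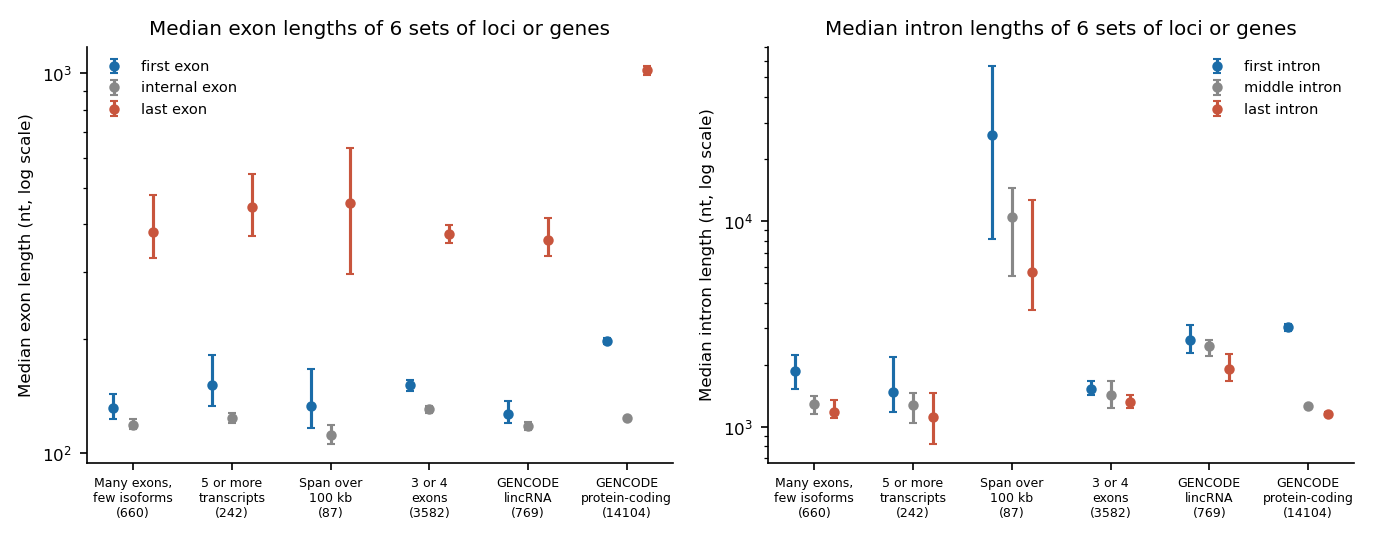
Median exon and intron length by position (first, internal or middle, last; nt, log axes) for the 660 loci, the catalogued loci left out by each limit and 2 GENCODE classes, with the number of loci or genes under each name. Bars are exact 95% intervals of the median: the 660 loci lie beside the GENCODE lincRNAs in exon length, and protein-coding genes have a last exon of 1019 nt. The GENCODE lincRNAs include genes matched by the loci, and the GENCODE classes had no limit on span.

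First introns were longer at the median than middle and last introns. The median first intron was 1872.5 nt (95% interval 1526 to 2224, n = 660), the median middle intron 1288.5 nt (1146 to 1405, n = 1916) and the median last intron 1172.5 nt (1103 to 1345, n = 660). The intervals of the first and the middle introns did not overlap, and those of the middle and the last did. In loci with 5 exons the medians from intron 1 to intron 4 were 1937.5, 1494.5, 1412 and 1336 nt. The longest intron was intron 1 in 106 of these 372 loci (28.5%, 24.0 to 33.4%), intron 2 in 102, intron 3 in 88 and intron 4 in 77. An equal split over the 4 introns lies within that interval. With 6 exons intron 1 was the longest in 46 of 157 loci (29.3%, 22.3 to 37.1%). An equal split over 5 introns lies below that interval, but intron 2 was the longest equally often. With 7 exons intron 1 was the longest in 21.9% (12.5 to 34.0%) and with 8 in 12.9% (3.6 to 29.8%). Both intervals include an equal split. The medians of loci with 6, 7 and 8 exons did not fall steadily. With 6 exons the median was 860 nt at intron 4 and 1183 nt at intron 5. With 7 exons intron 3 had the highest median, 3400.5 nt, and the last intron the lowest, 736 nt. With 8 exons the median was 619 nt at intron 2 and 1111 nt at intron 3. Over all 660 loci the first intron was the longest in 176 (26.7%, 23.3 to 30.2%) and the last in 102 (15.5%). An equal split depends on the number of introns, so no single value is set beside these shares. The longest intron held 54.5% of the intron bases at the median. NONMMUG021256 on chromosome 19 had the longest, of 81065 nt, followed by NONMMUG023914 on chromosome 2 with 71595 nt and NONMMUG012044 on chromosome 13 with 71480 nt.

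The medians of the other sets had the same order with different sizes. Isoform-rich loci had median first, middle and last introns of 1468, 1269 and 1109.5 nt. Loci with 3 or 4 exons had 1530.5, 1422.5 and 1311.5 nt, and GENCODE lincRNAs had 2641, 2475 and 1915 nt. The GENCODE classes had no limit on span, while these catalogued loci spanned at most 100000 bp, which bounds their introns. Catalogued loci left out for a longer span had a median first intron of 26067 nt. How much of the difference in size from GENCODE comes from the span limit was not tested. In protein-coding genes the first intron stood further apart, with medians of 3039.5, 1258 and 1148 nt, and it was the longest intron in 36.8%.

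A second group of gaps between exons was far shorter than an intron that the spliceosome is known to remove. Of 3236 gaps, 178 (5.5%) were under 30 nt and 35 (1.08%) were 30 to 69 nt long. The gaps under 30 nt were found in 67 loci (10.2%), 46 of which had 2 or more. The shortest of them was 5 nt, and 107 were 5 to 10 nt long. The last intron was such a gap 54 times and the first 23 times. In GENCODE lincRNAs with 5 or more exons 4 of 3929 introns were under 30 nt, and in isoform-rich loci 19 of 1288 (1.48%) were. Transcripts with such a gap were 4.55% of the 242 isoform-rich loci, 11.5% of the 87 wide loci and 5.97% of the 3582 loci with 3 or 4 exons.

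**Figure D3:**
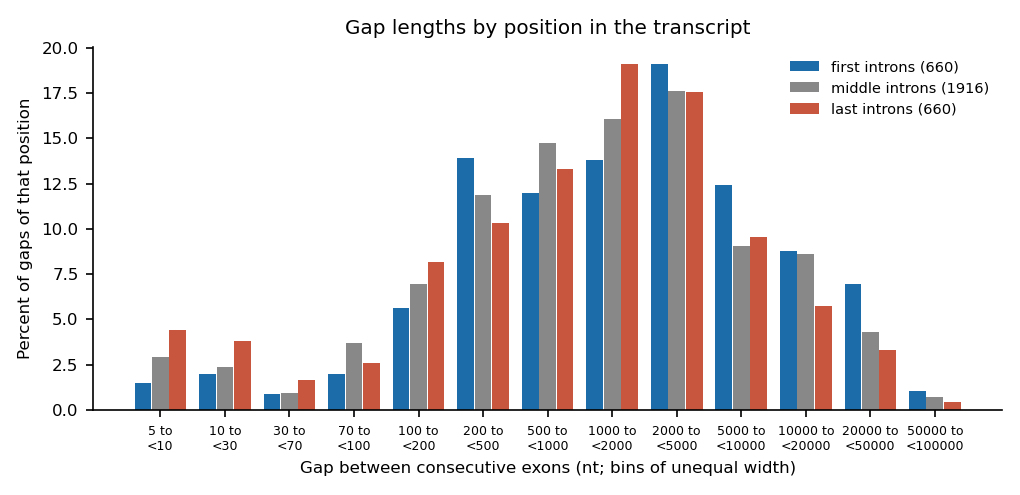
Share of the first introns (660), middle introns (1916) and last introns (660) of the 660 loci in bins of gap length in nt, with bins of unequal width. Bars are percents of the gaps at that position: a main group is highest between 1000 and 5000 nt, and a small separate group of 5 to 30 nt stands left of a low at 30 to 70 nt.

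These 67 loci differed in several other measures. When gaps under 30 nt were joined, 58 of them fell below 5 exons and 602 of the 660 loci remained. Exons covered a median of 42.8% of the extent of the measured transcript in the 67, against 7.35% in the other 593. Internal exons under 30 nt made up 36 of 262 in them and 32 of 2314 in the rest. A GENCODE gene was matched for 18 of 67 (26.9%), against 471 of 593 (79.4%). The whole chain was found in GENCODE for 0 of 67 and for 394 of 593 (66.4%). A gap was present in 49 of 175 loci with no single matched gene (28.0%) and in 16 of 399 matched to a non-coding gene (4.01%). Whether such gaps come from the alignment of the RNA to the genome was not tested.

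Single loci show the form. NONMMUG031834 (chromosome 5, 18656408 to 18658261, minus strand) has 10 exons of 348, 371, 204, 16, 14, 9, 16, 46, 95 and 268 nt. The gaps between them are 10, 20, 54, 334, 18, 6, 7, 6 and 12 nt, 7 of them under 30 nt. NONMMUG002630 (chromosome 1, 183017273 to 183022733) has 7 exons and 6 gaps, and 98.4% of the extent of its measured transcript is exon. In 8 loci every gap was under 30 nt, so the measured transcript was nearly 1 continuous block.

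An internal exon length of 30 nt or more occurred more than once within 20 loci (3.03%, 1.86 to 4.64%). In 15 of them the length occurred exactly 2 times and in 5 it occurred 3 or more times. Isoform-rich loci had such a repeat in 10 of 242 (4.13%) and GENCODE lincRNAs in 33 of 769 (4.29%). Loci spanning over 100 kb had one in 7 of 87 (8.05%), and loci with 3 or 4 exons in 2 of 3582 (0.056%). The share was 29.5% in protein-coding genes, which have more exons. Sequence was at hand for 12 of the 20 loci. In 10 of these 12, no pair of equal-length exons was more than 37.6% identical, and the highest identity per locus began at 16.4%. The exons of Gm36011 printed above belong to that group, with 21.6 to 26.1% identity between pairs, and the 275-nt exons of NONMMUG018266 (H2-M10.5-ps1) were 23.3% identical. In the other two, NONMMUG017698 and NONMMUG012757, at least 1 pair was 80% identical or more.

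NONMMUG017698 (chromosome 17, 23841455 to 23859750, minus strand) has 40 exons and 3725 nt of transcript. Its first exon is 953 nt and its last 748 nt. Of its 38 internal exons, 35 have a length divisible by 3 and 33 are 30 to 60 nt long. Besides the 13 exons of 33 nt there are 6 of 30 nt, 5 of 36 nt, 5 of 60 nt and 2 of 54 nt. The 78 pairs of 33-nt exons were 18.2 to 100% identical, with a median of 60.6%. Its introns are short too: 14 of 39 are under 100 nt and the median is 161 nt. GENCODE classes the matching gene as protein-coding. The longest open reading frame, of 232 codons, runs from exon 6 to exon 20, contains 6 of the 33-nt exons and covers 18.8% of the transcript.

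NONMMUG035237 (chromosome 6, 47604920 to 47702924, minus strand) is made of 10 exons that are all 174 nt, including the first and the last. Its introns are 8520 and 58681 nt and then 7 introns of 4134 to 4166 nt. From one exon start to the next the median step is 4321 nt. The first step, 8694 nt, is 2.01 times that and the second, 58855 nt, is 13.6 times. No GENCODE gene was matched, so its exon sequences are not given. In NONMMUG012757 (chromosome 14, 44603669 to 44615191, minus strand) a block of exons occurs more than once. Its exons are 140, 89, 107, 129, 89, 89, 107 and 354 nt and its introns 3186, 634, 1424, 414, 2703, 630 and 1428 nt. The 89-nt exons printed above are 97.8 to 98.9% identical, and the 107-nt pair is 99.1% identical. The intron after the 89-nt exon is 634 nt in the first copy and 630 nt in the last, and the intron after the 107-nt exon is 1424 and 1428 nt. In NONMMUG038327 (chromosome 7, 78233313 to 78261425) the exons are 35, 88, 88, 95, 88 and 2325 nt.

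**Figure D4:**
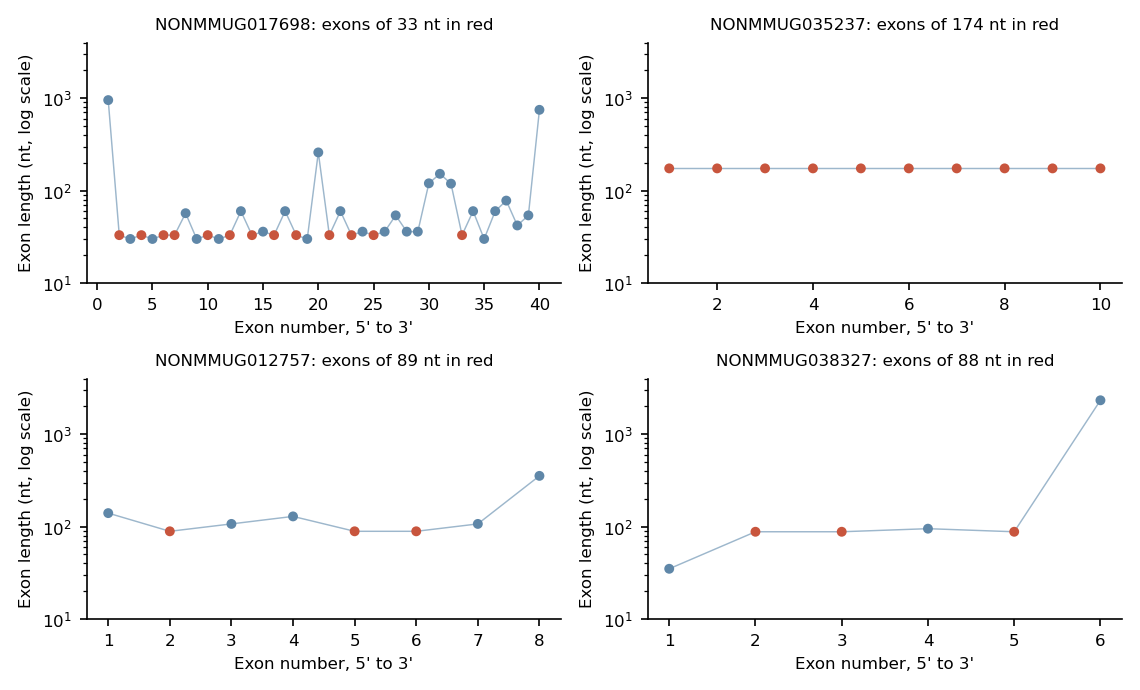
Exon length in nt (log axis) against exon number from 5′ to 3′ in the 4 loci with the exons printed above or with exons of 1 length throughout, with the repeated length in red. NONMMUG035237 is flat at 174 nt, and the 33-nt exons of NONMMUG017698 are spread among other lengths over exons 2 to 33.

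Some internal exon lengths were common across loci. A length of 102 nt occurred in 30 exons, 73 nt in 29, 88 nt in 27, 100 and 111 nt in 26 each and 101 nt in 25. Outside the runs of similar neighbours the counts for 102, 73 and 111 nt were 17, 19 and 14, while that for 88 nt was still 27.

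The loci were far apart for the most part. Neighbouring loci on a chromosome were 2247.7 kb apart at the median (641 pairs), and 45 pairs (7.02%) were at most 100 kb apart. Of the 641 pairs, 42 had no other catalogued locus starting between them. Loci were called similar neighbours when they lay at most 1 Mb apart and shared 2 or more consecutive internal exons of equal length in the same order. This held for 75 of 311 pairs within 1 Mb (24.1%). It held for 57 of 204752 pairs on different chromosomes (0.0278%). Outside the largest run it held for 14 of 250 pairs within 1 Mb (5.60%). The similar pairs formed 7 runs with 29 loci, and 4 pairs were on opposite strands.

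The largest run covers 1194.43 kb of chromosome 4 (60168146 to 61362578), with 12 loci on the plus strand. Of its 66 pairs, 61 were similar. Exons of 111 and 102 nt, a last exon of 26 nt and a last intron of 164 nt were present in 12 of 12 loci. An exon of 134 nt was present in 9 and the internal exon of 73 nt in 10. NONMMUG029440 has 68 nt in its place, and NONMMUG029437 has a 13-nt and a 63-nt exon. NONMMUG029437 also splits the first exon into 73 and 21 nt with a gap of 5 nt, which adds up to the 99 nt of the first exon in 6 other loci. Transcripts were 532 to 556 nt long, with a median of 545 nt. The fourth intron was 4313 nt in NONMMUG029427 and 4316 nt in NONMMUG029441 but 341 or 342 nt in most of the others. From start to start the loci were 81.986 kb apart at the median, between 61.129 and 265.496 kb.

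**Figure D5:**
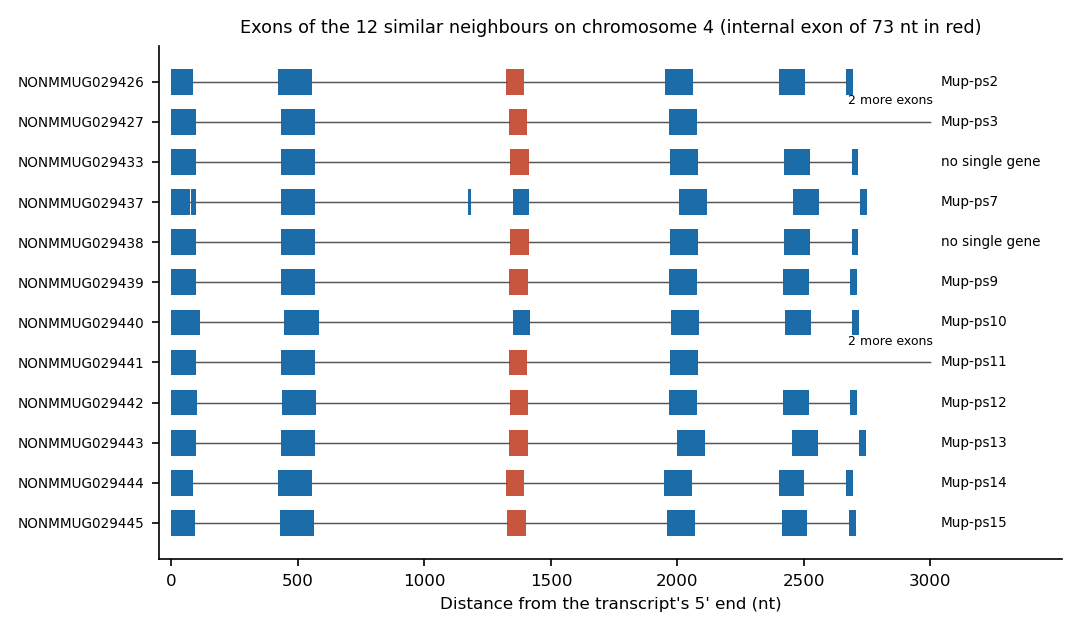
Exons (boxes) and introns (lines) of the 12 loci of the chromosome 4 run against the distance from the 5′ end in nt, with the internal exon of 73 nt in red and the matched gene at the right. The pattern repeats from locus to locus: 10 of 12 have the red exon, and NONMMUG029427 and NONMMUG029441 have 2 exons beyond the right edge.

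Of these loci, 10 matched pseudogenes of the Mup family, which encode no intact urinary protein. The order of 9 of them along the chromosome was the same in GENCODE for 8 of 8 neighbouring pairs. Between pairs of loci the 73-nt exon was 95.9 to 100% identical (28 pairs of 8 loci), the 102-nt exon 93.1 to 100%, the 111-nt exon 94.6 to 100% and the 134-nt exon 96.3 to 100%. In all of GENCODE the exon order 134, 73, 111 and 102 nt occurred in 11 genes, all of them pseudogenes. The order 134, 74, 111 and 102 nt occurred in 23 genes, of which 22 are protein-coding and 1 is a pseudogene. With 1 base left out, the 74-nt exon of a coding gene differed from a 73-nt exon at 5 to 21 positions, with a median of 11 over 176 pairs. The base left out was at position 59 to 61 in each of them. NONMMUG029433 and NONMMUG029438 matched no single gene. NONMMUG029431 (60450234 to 60452936), which matched Mup-ps4, lies among the 12 and has the same last intron of 164 nt and last exon of 26 nt. It has 8 exons, one of only 4 nt, and was not similar to any of the 12 by the rule on consecutive internal exons.

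The second run, on chromosome 7 (8726653 to 10462312), has 5 loci with a shared core of exons of 38 or 39, 126 and 86 or 87 nt. NONMMUG037202 has exons of 277, 190, 39, 126, 87 and 1928 nt. NONMMUG037208 and NONMMUG037210 have the same first 5 exons and last exons of 925 and 1916 nt. NONMMUG037198 and NONMMUG037199 are shorter, with 78, 38, 126, 86 and 549 nt and with 76, 38, 126, 87 and 548 nt. Only NONMMUG037210, on the minus strand, matched a gene on its own strand, Gm45351. The lengths of the other 4, on the plus strand, were found on the opposite strand of GENCODE, in the pseudogenes Gm3611, Gm18201, Gm20482 and 2810047C21Rik1. The lengths ran there in the same order from 5′ to 3′ as in the loci. Why the strands differ was not tested. The seventh run, also on chromosome 7 (7561338 to 7873522), holds NONMMUG037195 (Gm7651) and NONMMUG037196 (Gm7230) with exons of 38, 116 and 87 nt that are 95.4 to 100% identical.

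The third run lies on chromosome 2 (151090339 to 151258138). NONMMUG025068 (Gm14144, minus strand) and NONMMUG025069 (4930442J19Rik, plus strand) both have exons of 67, 154, 178, 259, 71 and 992 nt. NONMMUG025072 (Gm14152, minus strand) has 83, 154, 178, 259, 71, 96 and 232 nt. Shared exons were 97.4 to 100% identical, as in the 154-nt exon printed above. The fourth run, on chromosome 5 (11109800 to 11680823), holds NONMMUG031754 (4930558F17Rik), NONMMUG031760 (4930437M23Rik) and NONMMUG031761 (Gm33847), with exons of 46, 220 and 131 nt that are 97.7 to 100% identical where shared. NONMMUG031760 has 144 nt in place of 131 nt.

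The fifth run, on chromosome 2 (176908708 to 177183025), joins NONMMUG025811 and NONMMUG025813, which matched the pseudogene Gm14413 and the protein-coding gene Gm14418. They share exons of 127 and 61 nt, a pair also found in 153 GENCODE genes on 14 chromosomes. Of these genes, 118 are protein-coding, 54 have a Zfp symbol (zinc finger proteins, a large family of DNA-binding factors) and 50 are on chromosome 2. The pair was present in 7 of the 660 loci. The sixth run, on chromosome 3 (96149210 to 96192787), holds NONMMUG027317 (Platr30, plus strand) and NONMMUG027320 (Gm17575, minus strand). Both have exons of 236, 254, 116, 66, 115 and 1204 nt, and the shared internal exons are 100% identical. Their introns are 601, 3148, 5765, 799 and 891 nt in Platr30, and the second and the third are 3149 and 5788 nt in Gm17575. The sixth and the seventh run were chosen for naming after their values were seen.

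At the 354 loci with 2 to 4 transcripts the isoforms often differed at their ends. All transcripts shared a 5′ end at 59 loci (16.7%) and a 3′ end at 60 (16.9%). No pair shared a 5′ end at 203 (57.3%), and no pair shared a 3′ end at 214 (60.5%). At least 1 splice junction was common to all transcripts at 188 loci (53.1%), and at 166 (46.9%) none was. At 252 loci (71.2%) only 1 transcript had 5 or more exons. A transcript without introns was annotated at 28 (7.91%). The median number of distinct junctions was 6.

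A GENCODE gene with an intron, exon and intron of the same lengths in a row was found for 489 loci (74.1%, 70.6 to 77.4%), of which 485 matched 1 gene and 4 were ties. The whole chain was found for 394 (59.7%), and the first and last exon were also equal in 286 (43.3%). With the strand swapped the same search matched 25 (3.79%), and with the order of lengths reversed it matched 1. Of the 485 genes, 299 (61.6%) are lincRNAs, 58 (12%) antisense, 38 (7.84%) processed transcripts and 63 (13.0%) pseudogenes, and 23 (4.74%) are protein-coding. Placeholder names of the Rik or Gm type made up 401 (82.7%). A match was found for 69.4% of loci with 5 exons, 79.6% with 6 and 76.6% with 7, and for 15 of 16 loci with 9. By number of transcripts it was found for 79.1% of loci with 1, 70.6% with 2, 69.3% with 3 and 68.8% with 4. Pseudogenes were 13 of 22 matched loci in runs (59.1%) and 50 of 463 outside them (10.8%). Most of the 13 are Mup pseudogenes of the chromosome 4 run, so the share in runs mainly counts 1 family.

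The class of the matched gene went with the length of the last exon. Loci matched to non-coding genes had a median last exon of 522 nt (419 to 603, n = 399) and a median span of 23401 bp, and the last exon was the longest in 64.9%. Loci matched to pseudogenes had 176 nt (144 to 286, n = 63), 7345 bp and 41.3%. Loci with no single matched gene had 268 nt (217 to 378, n = 175), 12751 bp and 45.1%. Without the runs, the pseudogene median was 195 nt (147 to 310, n = 50). Its interval stayed below that of the non-coding genes. Internal exons divisible by 3 were 32.5% (30.2 to 34.9%) in loci matched to non-coding genes and 39.5% in those matched to pseudogenes. Without the runs the pseudogene share was 36.9% (30.6 to 43.7%), and its interval overlapped that of the non-coding genes. In loci matched to coding genes the share was 54.6%, and 38.2% without the runs and the 40-exon locus.

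Transcripts that were the same in both annotations allowed their sequence to be read. A polyadenylation signal, AATAAA or ATTAAA, was searched in the transcript strand in the last 40 nt. It was present in 144 of 229 matched to non-coding genes (62.9%, 56.3 to 69.2%) and in 9 of 47 matched to pseudogenes (19.1%). In the same window it was present in 391 of 769 GENCODE lincRNAs (50.8%) and in 72.2% of protein-coding genes. The 769 lincRNAs include genes matched by loci here, so they are not independent of the 229. An open reading frame of 100 codons or more was present in 33 of the 229 (14.4%), in 17 of the 47 (36.2%), in 20.2% of GENCODE lincRNAs and in 98.3% of protein-coding genes. The longest were 232 codons in 1520401A03Rik, 222 in Gm17094, 202 in Speer6-ps1 and 193 in 9230020A06Rik. In the 229, the median GC content fell from 50.0% in the first exon to 46.9% in internal exons and 44.1% in the last. In GENCODE lincRNAs it was 49.1, 46.8 and 43.9%, and in protein-coding genes 63.5, 51.2 and 46.1%.

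Known lncRNAs were searched by name. Of 70 names searched, 61 were gene symbols in GENCODE and 3 matched. The rule itself kept 2.25% of all catalogued loci, so the count is not read as few or many. Names on chromosome X, such as Xist, could not match under the rule, and the Platr genes below are not among the 3. NONMMUG020761 (chromosome 19, 8797897 to 8800935, plus strand) matched Snhg1, whose introns encode small nucleolar RNAs. It has 10 exons of 100, 49, 81, 50, 33, 35, 39, 45, 36 and 207 nt and introns of 634, 213, 188, 292, 175, 228, 258, 240 and 136 nt, for 675 nt of transcript. NONMMUG041781 (chromosome 8, 123578782 to 123607010, minus strand) matched Fendrr, a lncRNA beside Foxf1 known from heart and body wall development. Its exons are 137, 548, 182, 186, 171, 488 and 698 nt and its introns 8903, 6676, 885, 595, 4098 and 425 nt. NONMMUG020083 (chromosome 18, 61805532 to 61825192, minus strand) matched Carmn, known from cardiac differentiation and smooth muscle. Its exons are 237, 109, 164, 244 and 603 nt and its introns 10763, 2023, 2092 and 3426 nt. The last exon was the longest in all 3, and Snhg1 was compact, with introns of 136 to 634 nt. Genes of the Platr series, named for transcripts associated with pluripotency, matched 8 loci: Platr3, Platr6, Platr8, Platr20, Platr22, Platr28, Platr29 and Platr30. They had 5 or 6 exons and spans of 5624 to 57375 bp, and were singled out after their values were seen. The 23 protein-coding matches included Muc16, Tnni1, Zfp141, Pkd1l1, Ankrd31 and Ifi213.

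Loci lay close to each limit of the rule. NONMMUG038206 (99840 bp) and NONMMUG040868 (99778 bp) were just inside the span limit, and NONMMUG005808 (100884 bp) and NONMMUG016706 (102905 bp) just outside it. With 4 exons in place of 5, 976 more loci would have met the other conditions. Exactly 5 transcripts kept out 42 loci.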

How the data were processed

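The authors deposited 1 exon table for the whole series. Its values are other than measurements: start and end positions of exons in bp, with a gene and a transcript identifier, as deposited by the authors. TopHat2 2.0.8, Cufflinks 2.1.1 and build mm9 are named in the submitters' processing notes. The catalogue itself is labelled as mouse NONCODE lincRNA, and its locus identifiers begin with NONMMUG. Beyond that label, the sources used here do not say how gene models were selected. No counts or depths per library were used.

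Loci, exons and gaps were measured with Python 3.11.15 and numpy 2.4.6. Exact 95% intervals of shares and medians used scipy 1.17.1, and figures matplotlib 3.10.9. Any gap between exons counted as an intron. Internal exons of 30 nt or more entered repeats and runs. GENCODE M21 genes on build GRCm38 were matched by lengths alone, without converting coordinates. Identity is position by position. No test across libraries was possible. Steps were tested on 660 simulated loci. The members and lists were chosen with earlier results of these data known. Named loci are the 3 highest for each length measure, the 5 largest runs, those nearest the limits and matches to 70 known lncRNAs.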

Additional observations from a re-analysis of the deposited data

How the results depend on the processing

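Of 76 values under other settings for 13 results, 65 stayed within the interval of the reported value or, for counts, within 1.5 times it. The number of loci was 288 with 6 or more exons, 1636 with 4 or more and 306 with 1 transcript only. With 1 transcript only the median first exon was 120.5 nt. With gaps under 30 nt joined the median middle intron was 1466 nt and the median last intron 1377 nt, and with 6 or more exons the last intron was 1029.5 nt. A repeated internal exon length was found in 5.90% of loci with 6 or more exons and in 7.27% when lengths within 1 nt counted as equal. The share matched to GENCODE was 59.7% when the whole chain had to match, and 79.4% without loci with a gap under 30 nt, a setting chosen after seeing the data. For these values the cause was not tested, apart from the wider or narrower selection that the setting itself makes. Keeping 1 locus per run, also chosen after seeing the data, moved 0 results past their interval. No paired analysis was possible because the deposited table holds no value per library, and comparisons between library groups were therefore not run. The absence of depth means that no locus can be called expressed or not expressed here.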
